A study of Mus musculus with 6 samples.

Results

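The genes described here are 44 genes of DNA replication and S phase, the part of the cell cycle in which the genome is copied. They were chosen by gene symbol from the known replication machinery, and no measured value is part of that rule. The choice was nevertheless made with earlier results of these data known. All 44 were found among the 23358 gene rows of the deposited count table, and all 44 were among the 14979 genes that passed the filter on low counts. RNA came from N1E115 cells, a mouse neuroblastoma line with features of sympathetic neurons, labelled NOS1-positive (NOS1 is the nitric oxide synthase of neurons). Cells were kept for 3 days in 20% O2, the ambient level of an incubator, or in 4% O2, and no other agent or genetic change is given in the labels. Each oxygen level had 3 libraries numbered 1 to 3, which are called here 20% O2 replicate 1 and so on. The cells are an established tumour line. Whether libraries of one level stem from different cultures is not stated in the labels, and p-values therefore rest on a between-library spread that could be technical.

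A replication origin is licensed in G1 when the origin recognition complex, Cdc6 and Cdt1 load the ring-shaped Mcm2 to Mcm7 helicase onto DNA. At the G1/S boundary cyclin E kinases help to turn the loaded rings into active helicases by recruiting Cdc45 and the GINS complex, after which primase, the polymerases, the sliding clamp PCNA and its loader copy the DNA. E2F transcription factors switch on many of these genes together as cells enter S phase, so their RNA is low in resting cells and high in cultures that divide fast.

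Library totals ran from 124259152 to 163695286 counts, and the members held between 972 and 50354 counts per library, so counting error was small beside the differences between libraries. Levels are given as CPM, counts scaled to a common library size, with sizes set by TMM, a normalisation that assumes most genes do not move. Genes that respond to low oxygen showed the labelled contrast. Slc2a1, the main basal glucose transporter, had 67.4, 39.7 and 40.7 CPM in 20% O2 replicates 1 to 3 and 212, 193 and 146 CPM in the 4% O2 libraries, without overlap (log2 fold change 1.90, SE 0.29). Its adjusted p was 0.112 in edgeR, 0.0222 in edgeR blocked on replicate number and 7.5e-06 in DESeq2, so the last 2 called it. Sympathetic markers matched the labelled cell type, with Th at 280 to 548 CPM and Dbh at 163 to 524 CPM. Ddc, another catecholamine enzyme, reached no more than 3.61 CPM, and Hand1, Nefl and Nefm reached no more than 0.155, 0.275 and 0.262 CPM.

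No replication gene was called different between the oxygen levels, and the clearest difference lay between libraries of the same level. In 20% O2 replicate 1, 31 of the 44 members had their lowest level of the 6 libraries, a position that 25.8% of all tested genes held there. The summed level of the 44 was 2774 CPM in 20% O2 replicate 1, against 4941 and 5248 CPM in replicates 2 and 3 of that level, and 4147, 3508 and 4815 CPM in the 4% O2 libraries. By summed level the 4% O2 libraries lay inside the range of the 20% O2 libraries. The second-lowest sum was that of 4% O2 replicate 2. There 11 further members were at their lowest, a position that 10.6% of all tested genes held in that library. In bulk RNA, fewer cells in S phase and less replication RNA per cell cannot be told apart.

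**Figure D1:**
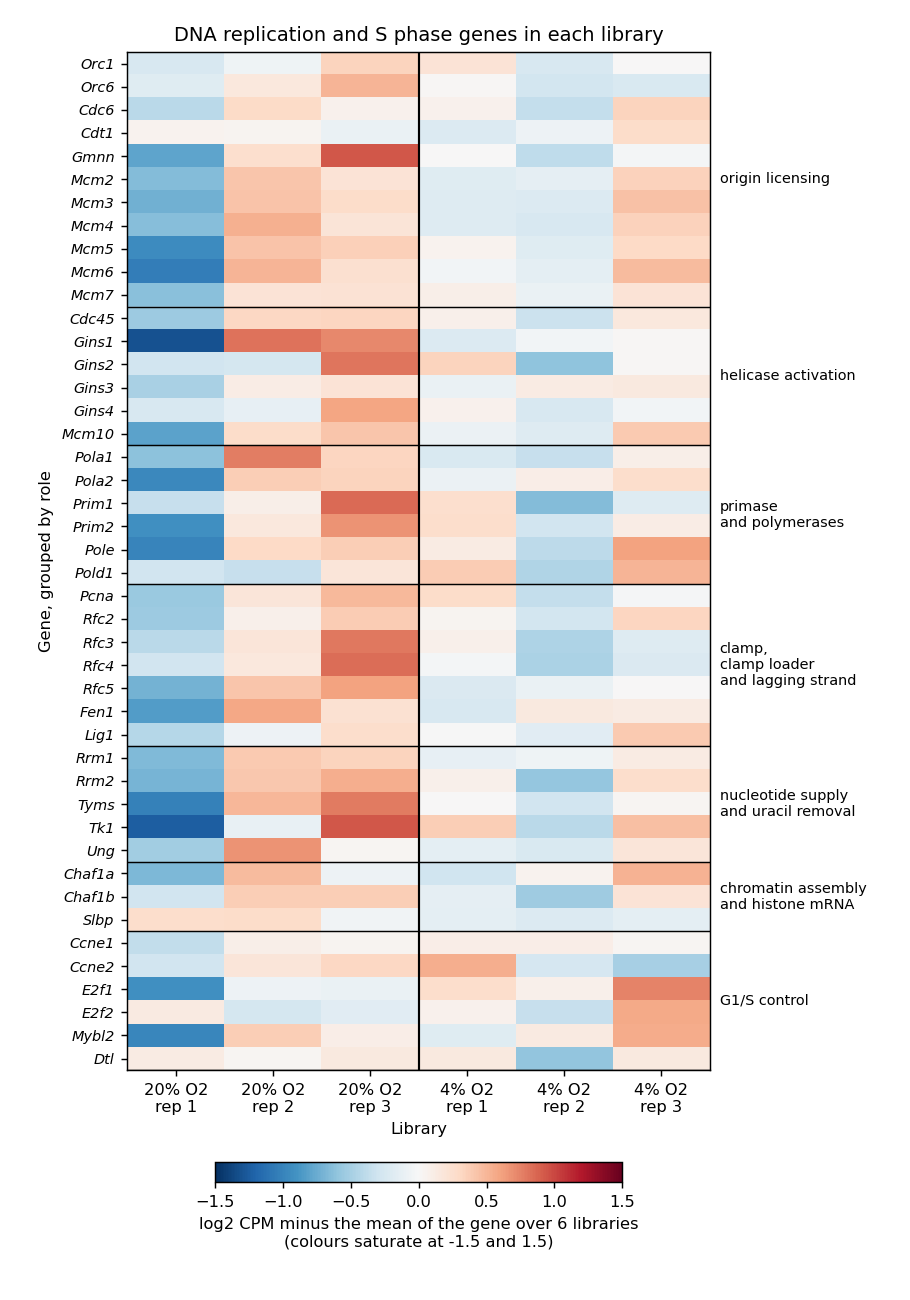
Each row is a member, grouped by role, and each column a library; the colour gives log2 CPM minus the gene's mean over the 6 libraries. The column of 20% O2 replicate 1 is blue for most rows, with Cdt1, Slbp, E2f2 and Dtl among the exceptions. The highest library is 20% O2 replicate 3 for 21 members, beside 17.0% of all tested genes.

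The test across all genes (edgeR's quasi-likelihood test, Benjamini-Hochberg adjusted over 14979 genes, threshold 0.05) called 0 of the 44 members higher and 0 lower at 4% O2, and 0% of all tested genes in either direction. The smallest adjusted p of a member was 0.996. At an unadjusted p under 0.05, 1 member, E2f1, was higher and 0 were lower, where 451 of all tested genes (3.01%) were higher and 213 (1.42%) lower. DESeq2 also called 0 members. Among the 14357 genes to which it gave an adjusted p, it called 55 higher (0.383%) and 8 lower (0.0557%). Of the 18715 genes to which it gave a p, 2.75% were higher and 1.91% lower at an unadjusted p under 0.05. limma-voom called 0 genes, with 3.36% higher and 1.3% lower at an unadjusted p under 0.05, E2f1 again being the member among them. No member was called in edgeR fits with no filter on low counts (0.133% of genes higher and 0.0107% lower), with replicate number as a block (0.0734% higher), or without 4% O2 replicate 3 (0.00654% lower). Log2 fold changes of the members, 4% against 20% O2, ran from -0.54 to 0.71 with a median of -0.07, beside a median of -0.03 over all tested genes, and 27 were below 0, beside 52.7% of all tested genes. With library totals in place of TMM, 22 of the 44 were below 0. Their standard errors ran from 0.23 to 0.45.

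No member was called when any single library was left out, but the balance of estimates moved. Without 20% O2 replicate 1, 39 of the 44 estimates were below 0, beside 49.6% of all tested genes, and the median of the members was -0.31 while that of all genes was 0.00. At an unadjusted edgeR p under 0.05, 7 members were then lower at 4% O2 and 0 higher, where 3.01% of all tested genes were lower and 5.79% higher. These 7 were Gmnn, Gins1, Pola1, Rfc3, Rfc4, Rfc5 and Tyms. None of them passed after adjustment, and the smallest Benjamini-Hochberg adjusted p of edgeR was 0.279, for Gins1. Leaving out any other library gave member medians between -0.17 and 0.08. Without 4% O2 replicate 3, 37 estimates were below 0, close to the 39 without 20% O2 replicate 1, and without 20% O2 replicate 3 29 were above 0. Each of these medians differed from that with all libraries by less than the spread of the member median between libraries of a level (mean SD 0.37). That spread includes the library left out, so the comparison cannot show that the medians are stable.

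**Figure D2:**
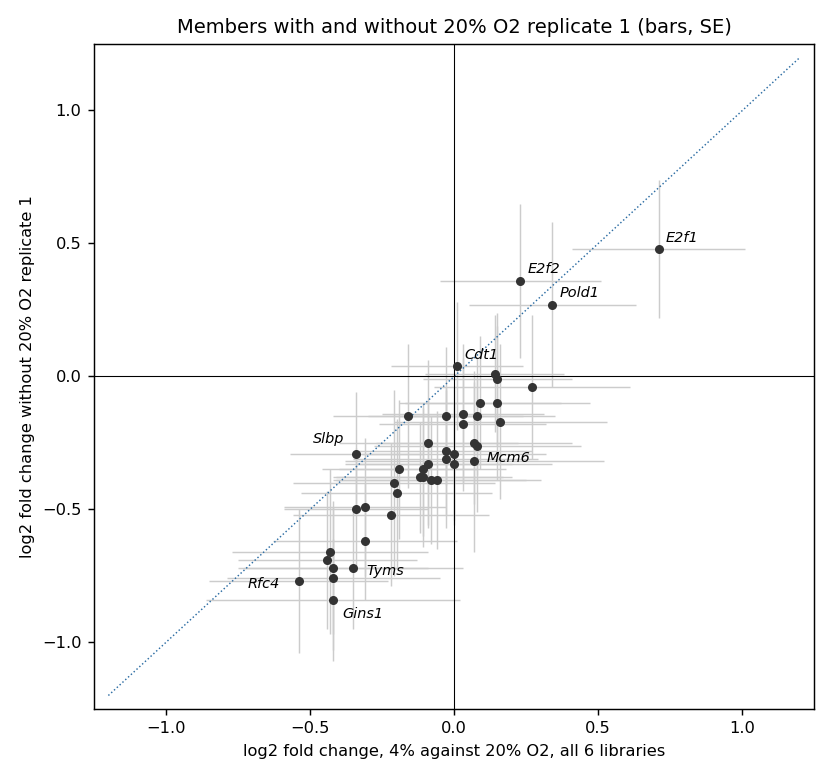
Each point is a member, with its log2 fold change at 4% against 20% O2 from all 6 libraries on the horizontal axis and without 20% O2 replicate 1 on the vertical axis; bars are standard errors and the dotted line marks equal values. Most points lie below the dotted line, and 39 of 44 lie below 0 on the vertical axis.

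Within a shared replicate number, the direction of the oxygen difference was not the same across the 3 numbers. Between the libraries numbered 1, 41 of the 44 members were higher at 4% O2 (median log2 difference 0.55), beside 50.6% of all tested genes. Between the libraries numbered 2, 3 were higher and 41 lower (median -0.47), beside 52.3% of all tested genes higher. Between those numbered 3, 14 were higher and 30 lower (median -0.08), beside 51.8%. The pattern of higher in number 1 and lower in numbers 2 and 3 was shown by 27 members, against 15.8% of all tested genes. E2f1 was the member that was higher at 4% O2 in all 3 numbers, and Slbp the member that was lower in all 3, 1 of 44 in each direction. Among all tested genes 17.3% were higher and 14.3% lower in all 3, so such genes were not more frequent among the members.

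**Figure D3:**
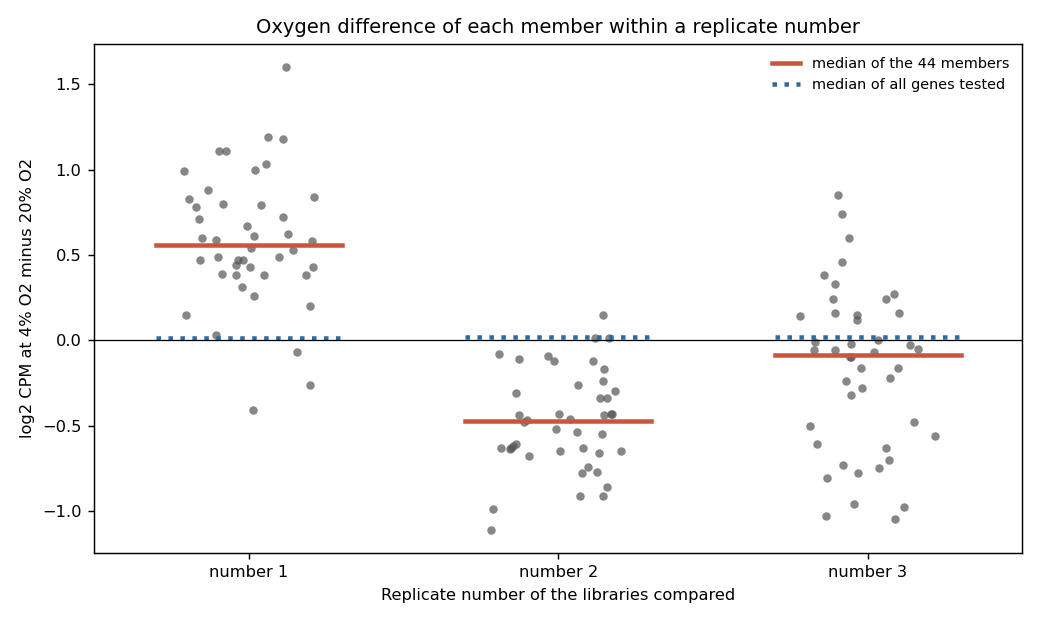
Each point is a member, plotted as its log2 CPM at 4% O2 minus that at 20% O2 between the 2 libraries that share a replicate number; bars mark the median of the 44 members and of all tested genes. The members' medians are 0.55, -0.47 and -0.08, while those of all genes stay near 0.

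Some members carry an E2F-type motif in the promoter. Many are textbook E2F targets, so the list is not independent of this feature. RefSeq promoter windows (build GRCm38.p6, 250 bases before to 50 after the start site) were found for 35 of the 44 members. They were searched on both strands for the E2F-type motifs TTTCCCGC, TTTGGCGC, TTTCGCGC and TTTGCCGC. At least 1 match was found in 14 of the 35 members, or 40.0%, in 4.38% of the 10343 tested genes with a window, and in 2.6% of the 27025 genes in the promoter table. The stretches below are the parts of 6 member promoters upstream of the start site that hold a match, written 5′ to 3′ on the gene's strand with matches in capitals. They are examples chosen after the levels were seen. RNA of Mcm5, Mcm6, Mcm7, Pola1 and Rfc3 was lower in 20% O2 replicate 1 than in the other ambient libraries. Dtl RNA was close to level across those 3. Cdc6, Gins3 and Orc1 also had an upstream match and lower RNA in 20% O2 replicate 1, and are not shown. The choice therefore cannot link a match to a low level.
Mcm5, chr8:75109341-75109382, plus strand: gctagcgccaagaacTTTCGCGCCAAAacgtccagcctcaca
Mcm6, chr1:128359730-128359830, minus strand: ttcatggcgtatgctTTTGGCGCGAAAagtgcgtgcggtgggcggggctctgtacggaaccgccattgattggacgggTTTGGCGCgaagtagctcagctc
Mcm7, chr5:138172026-138172063, minus strand: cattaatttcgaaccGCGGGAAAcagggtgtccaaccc
Pola1, chrX:93632271-93632308, minus strand: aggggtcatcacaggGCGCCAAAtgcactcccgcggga
Rfc3, chr5:151651209-151651233, minus strand: agtgacgtcgcacgcTTTCGCGCtc
Dtl, chr1:191575545-191575567, minus strand: aaagcgtgacgtcagTTTGGCGC

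In Mcm5 and in the distal block of Mcm6, matches on opposite strands share their central bases, which gives the 12-base capital runs. Members with and without a match were both low in 20% O2 replicate 1 in most cases. It was the lowest for 8 of the 14 members with a match and for 16 of the 21 members with a window and no match. The level in 20% O2 replicate 2 over that in replicate 1 had a median of 1.52 among the 14 and 2.09 among the 21. A match is a description of the letters in the window and does not show that a factor binds there.

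Members differed widely in abundance. Per kilobase of the deposited gene length, in the authors' RPKM, Pcna, the sliding clamp, was the most abundant, with a mean of 137 RPKM and a range of 88.3 to 169 over the 6 libraries. Mcm7 had a mean of 69.4 RPKM (43.0 to 85.1). Prim1, Mcm2, Mcm6, Tk1 and Rrm1 had means of 51.2, 50.5, 49.7, 48.9 and 48.1 RPKM. Ranges overlapped from Mcm7 down, so the order of these 6 is not resolved. The least abundant were Gins3, the origin recognition subunit Orc1, and Ung, which removes uracil from DNA, at 3.07, 3.38 and 3.42 RPKM, followed by Cdc6 at 4.87 RPKM. These low members also overlapped in range with one another (2.10 to 6.55 RPKM over the 4).

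Among the 11 licensing genes, the 6 helicase subunits moved together from library to library. Mcm2 to Mcm7 summed to 702, 1571 and 1415 CPM in 20% O2 replicates 1 to 3 and to 1142, 1067 and 1514 CPM in the 4% O2 libraries. All 6 were lowest in 20% O2 replicate 1, and replicate 2 of that level exceeded it by 1.78 times in Mcm7 to 2.89 times in Mcm6. Mcm6 had 104, 302 and 251 CPM at 20% O2 and 207, 192 and 296 CPM at 4% O2. Its log2 fold change was 0.08 with all libraries and -0.26 without 20% O2 replicate 1. These MCM values were picked as examples after they were seen.

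Gmnn encodes geminin, which binds Cdt1 and blocks relicensing after S phase has begun. It had 26.9, 55.3 and 88.5 CPM in the 20% O2 libraries and 46.7, 35.5 and 45.5 CPM in the 4% O2 libraries. The 4% O2 values lay inside the range of the 20% O2 values, which spanned 3.29 times. Orc6, the small origin recognition subunit, had 75.0, 94.8 and 121 CPM at 20% O2 and 86.1, 70.2 and 72.9 CPM at 4% O2. The groups overlapped, with means of 96.9 ± 22.9 and 76.4 ± 8.52 CPM (SD, n = 3). Neither gene passed the edgeR test, with log2 fold changes of -0.42 (SE 0.37) and -0.34 (SE 0.25). Gmnn was at 0.06 and Orc6 at -0.15 on that scale without 20% O2 replicate 3, and at -0.76 and -0.50 without 20% O2 replicate 1. Cdt1, the licensing factor that geminin binds and an example chosen after its values were seen, was at 155, 154 and 139 CPM at 20% O2 and 129, 142 and 181 CPM at 4% O2, and so was close to level between 20% O2 replicates 1 and 2.

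Helicase activation genes held the member with the widest gap between replicates 1 and 2 at 20% O2. Gins1, a subunit of the GINS complex that completes the active helicase, had 10.5, 45.7 and 42.7 CPM at 20% O2 and 22.6, 25.2 and 26.3 CPM at 4% O2. The 4% O2 libraries were close to one another and fell between 20% O2 replicate 1 and the other two. With all 6 libraries the log2 fold change was -0.42 (SE 0.44). It was -0.84 (SE 0.23) without 20% O2 replicate 1, where the unadjusted edgeR p was 0.00336 and the adjusted p 0.279. Leaving out 20% O2 replicate 2 or 3 moved it the other way, to -0.10 and -0.18. Gins4, another subunit of the complex, had 53.6, 58.2 and 95.6 CPM at 20% O2 and 66.4, 53.6 and 61.6 CPM at 4% O2. It differed from Gins1 in that 20% O2 replicates 1 and 2 were alike and replicate 3 was high, and the groups overlapped (log2 fold change -0.19, SE 0.27, and 0.12 without 20% O2 replicate 3). Gins2 had its peak in 20% O2 replicate 3 as well, but 67.3% of its annotated exon bases overlap the opposite-strand gene Gse1. Sources used here do not say whether counting used strand, so its level is uncertain.

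Of the primase and polymerase genes 4 of 6 were lowest in 20% O2 replicate 1, while Prim1 and Pold1 were lowest in 4% O2 replicate 2. Pola1, the catalytic subunit of the polymerase that starts each new strand, had 49.5, 129 and 94.9 CPM at 20% O2 and 64.5, 59.7 and 80.2 CPM at 4% O2. All 3 low-oxygen libraries lay between 20% O2 replicates 1 and 3. Its log2 fold change was -0.42 (SE 0.33) with all libraries and -0.72 (SE 0.25) without 20% O2 replicate 1, but -0.08 (SE 0.33) without 20% O2 replicate 2. Prim1, the primase subunit that makes the RNA primer, had 93.4, 126 and 213 CPM at 20% O2 and 141, 75.4 and 104 CPM at 4% O2, with overlapping groups and a log2 fold change of -0.43 (SE 0.34). That estimate was -0.03 without 20% O2 replicate 3, -0.23 without 4% O2 replicate 2, -0.66 without 20% O2 replicate 1 and -0.70 without 4% O2 replicate 1. Pold1, the catalytic subunit of the lagging-strand polymerase delta, had an estimate above 0, at 0.34 (SE 0.29), and kept that sign without 20% O2 replicate 1.

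Clamp, clamp-loader and lagging-strand genes were lowest in 20% O2 replicate 1 in 5 of 7 cases. Rfc4, a subunit of the loader that opens PCNA, had 23.4, 31.9 and 51.1 CPM at 20% O2 and 28.0, 20.5 and 24.6 CPM at 4% O2. Its groups overlapped, and its log2 fold change of -0.54 (SE 0.31) was the lowest of the 44 members. Rfc3, a second subunit, had 49.6, 74.7 and 114 CPM at 20% O2 and 69.4, 47.7 and 57.7 CPM at 4% O2. Both had their peak in 20% O2 replicate 3 and their lowest value in 4% O2 replicate 2. Neither passed, with an unadjusted edgeR p of 0.108 for Rfc4 and 0.182 for Rfc3 and an adjusted p of 0.996 for both. Without 20% O2 replicate 1 Rfc4 had -0.77 (SE 0.27) and Rfc3 -0.69 (SE 0.26) on the log2 scale, with edgeR adjusted p-values of 0.449 and 0.492. Without 20% O2 replicate 3 they had -0.18 and -0.09. Rfc4 shares 12.7% of its exon bases with the opposite-strand gene Eif4a2, and Fen1, the nuclease that trims Okazaki fragments, shares 78.8% with an antisense transcript, so both levels are uncertain. The same holds for Ccne2 (17.4% with Ints8), Rfc2 (15.1% with Lat2), Orc1 (10.8% with Gm12743) and Rfc5 (10.7% with Wsb2). Other members had smaller overlaps, such as 7.8% in Slbp.

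All 5 genes of nucleotide supply and uracil removal were lowest in 20% O2 replicate 1. Tyms, thymidylate synthase, had 27.3, 77.8 and 94.6 CPM at 20% O2 and 55.6, 45.3 and 56.2 CPM at 4% O2. The 4% O2 values again lay between 20% O2 replicate 1 and the other two. The log2 fold change was -0.35 (SE 0.38), and -0.72 (SE 0.23) without 20% O2 replicate 1. It was -0.22 without 20% O2 replicate 2 and 0.00 without 20% O2 replicate 3. Its pseudogene Tyms-ps had 8 to 16 counts per library. Rrm2, the ribonucleotide reductase subunit that limits deoxynucleotide supply in S phase, had 68.8, 148 and 163 CPM at 20% O2 and 118, 74.5 and 134 CPM at 4% O2, with overlapping groups (log2 fold change -0.22, SE 0.34). Single libraries moved that estimate between -0.52, without 20% O2 replicate 1, and 0.01, without 20% O2 replicate 3. Tk1, thymidine kinase of the salvage route, had the widest span of the 44, with 4.48 times between its lowest library, 20% O2 replicate 1, and its highest, 20% O2 replicate 3.

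E2f1 and Slbp were the members whose oxygen groups did not overlap. E2f1, the E2F activator that drives entry into S phase, had 35.3, 63.4 and 62.4 CPM at 20% O2 and 80.5, 70.5 and 112 CPM at 4% O2. Each low-oxygen library lay above each ambient one, an arrangement shown by 6.33% of all tested genes. Mean levels were 53.7 ± 16.0 CPM at 20% O2 and 87.7 ± 21.7 CPM at 4% O2 (SD, n = 3), and edgeR gave 0.71 (SE 0.30) as its log2 fold change. Its edgeR p was 0.0353 unadjusted and 0.996 adjusted, so it did not pass. Blocking on replicate number gave an edgeR adjusted p of 0.419, the lowest over its alternatives. Without 20% O2 replicate 1 the estimate was 0.48 (SE 0.26), without 4% O2 replicate 3 it was 0.49 (SE 0.34) and without 4% O2 replicate 1 it was 0.75 (SE 0.34). In each of those 3 fits E2f1 no longer had an unadjusted p under 0.05. E2f1 lies on chromosome 2, from 154559639 to 154569852 in mm10. E2f2, a second activator, had 61.8, 46.7 and 49.9 CPM at 20% O2 and 58.9, 44.3 and 83.2 CPM at 4% O2, where the groups overlapped and 4% O2 replicate 3 was the highest (log2 fold change 0.23, SE 0.28, and -0.03 without that library).

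**Figure D4:**
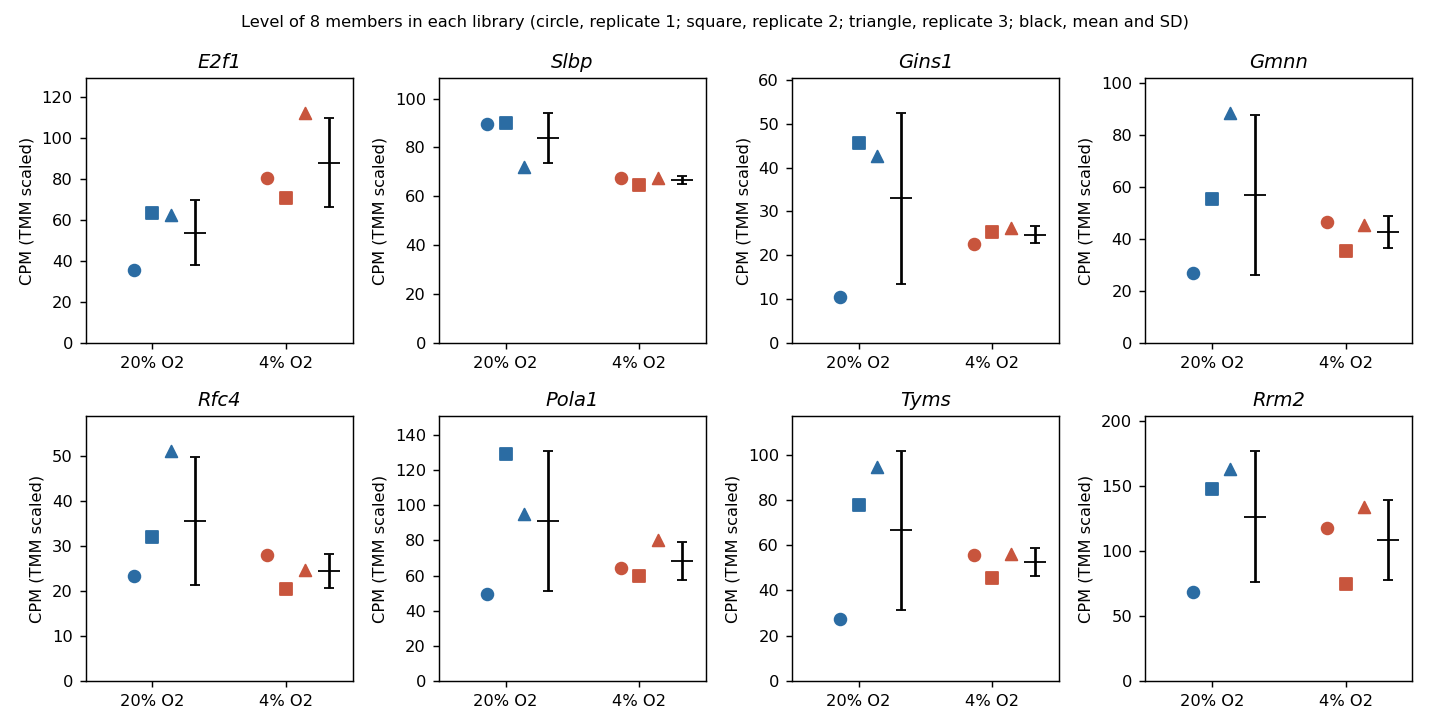
CPM of 8 members in each library at 20% O2 (blue) and 4% O2 (red), with circle, square and triangle for replicates 1, 2 and 3 and the mean with SD in black; each vertical axis starts at 0. E2f1 lies higher and Slbp lower in all 3 libraries at 4% O2, while in the other 6 genes the 20% O2 libraries span the 4% O2 values or overlap them.

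Slbp encodes the stem-loop binding protein that processes histone mRNA, which ends in a stem-loop in place of a poly(A) tail. It had 89.7, 89.9 and 72.1 CPM in the 20% O2 libraries and 67.4, 64.7 and 67.5 CPM in the 4% O2 libraries. Each 4% O2 library lay below each 20% O2 library, as for 3.72% of all tested genes. Mean levels were 83.9 ± 10.2 CPM at 20% O2 and 66.5 ± 1.60 CPM at 4% O2 (SD, n = 3). On the log2 scale the difference was -0.34 (SE 0.23), at an edgeR adjusted p of 0.996. Slbp lies on chromosome 5, from 33640062 to 33652306 in mm10. The clustered histone genes did not share this pattern. Over 68 rows they summed to 3970, 9268 and 13800 CPM at 20% O2 and 9029, 7362 and 8641 CPM at 4% O2, and 58 of the 61 tested were lowest in 20% O2 replicate 1, although many of these copies are near-identical and their counts could be split. Chaf1b, a subunit of the chromatin assembly factor that deposits new histones behind the fork, had 39.9, 62.6 and 62.8 CPM at 20% O2 and 44.3, 33.4 and 56.1 CPM at 4% O2, with overlapping groups (log2 fold change -0.31, SE 0.28, and -0.51 to -0.14 without single libraries). Chaf1a, its partner subunit, shares 52.5% of its exon bases with the opposite-strand gene Ubxn6 and is uncertain.

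Not all members were at their lowest in 20% O2 replicate 1, though some of these were still low there. Rfc3, for example, had 49.6 CPM there and 47.7 CPM at its lowest, in 4% O2 replicate 2. For 26 members these 2 libraries were the 2 lowest. The 13 with their lowest level elsewhere were Orc1, Orc6, Cdt1, Gins2, Prim1, Pold1, Rfc3, Rfc4, Chaf1b, Slbp, Ccne2, E2f2 and Dtl. Between 20% O2 replicates 2 and 1 the ratio of levels ran from 0.756 in E2f2 to 4.37 in Gins1, with a median of 1.8, beside a median of 1.0 over all tested genes. A ratio above 2 was seen in 21 members and in 10.6% of all tested genes. Dtl, which guides Cdt1 to destruction in S phase, had a ratio of 0.94. Between the remaining ambient libraries the members differed no more often than genes at large. In 20% O2 replicate 3, 9 of the 44 (Gmnn, Gins2, Gins4, Prim1, Prim2, Pold1, Rfc3, Rfc4 and Tk1) were at least 1.4 times their level in replicate 2, whereas 8 (Mcm4, Mcm6, Pola1, Fen1, Ung, Chaf1a, Slbp and Mybl2) were under 0.85 of it. Shares of all tested genes past the same limits were 23.9% and 33.4%. The median coefficient of variation of the members was 37.5% over the 20% O2 libraries and 19.5% over the 4% O2 libraries, beside 28.6% and 20.9% for all tested genes without a zero.

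Replication genes outside the 44 were also low in 20% O2 replicate 1 in most cases, though those with the smallest p were not lowest there. Of 33 other replication factors, such as the remaining origin, polymerase and single-strand binding subunits, 21 were lowest in 20% O2 replicate 1, and the median log2 fold change was -0.14. Dbf4, the activator of the kinase that fires origins, had 60.6, 124 and 71.2 CPM at 20% O2 and 39.1, 79.9 and 56.1 CPM at 4% O2, and Orc4, an origin recognition subunit, had 95.2, 86.5 and 72.9 CPM against 91.4, 50.5 and 49.2 CPM. Of 28 other S phase genes 19 were lowest in that library. For Usp1, a deubiquitinase that acts on PCNA, the levels were 55.9, 116 and 76.3 CPM at 20% O2 and 47.7, 70.9 and 65.7 CPM at 4% O2. In both lists 0 genes were called by edgeR in either direction, and 0 had an unadjusted p under 0.05.

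Mitosis genes separated from the replication genes in 4% O2 replicate 1. Their median deviation from the 6-library mean, in log2(CPM + 0.5), was -0.50 in 20% O2 replicate 1 and -0.49 in 4% O2 replicate 1, where that of the 44 members was -0.58 and 0.01. In 4% O2 replicate 2 the order was turned, with mitosis genes at 0.21 and the members at -0.24. Of the 36 mitosis genes 20 were lowest in 20% O2 replicate 1 and 16 in 4% O2 replicate 1. Ccnb1, the mitotic cyclin, had 314, 687 and 564 CPM at 20% O2 and 250, 492 and 340 CPM at 4% O2, with overlapping groups and no call. Mki67, the proliferation marker, had 337, 511 and 475 CPM against 401, 528 and 763 CPM.

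**Figure D5:**
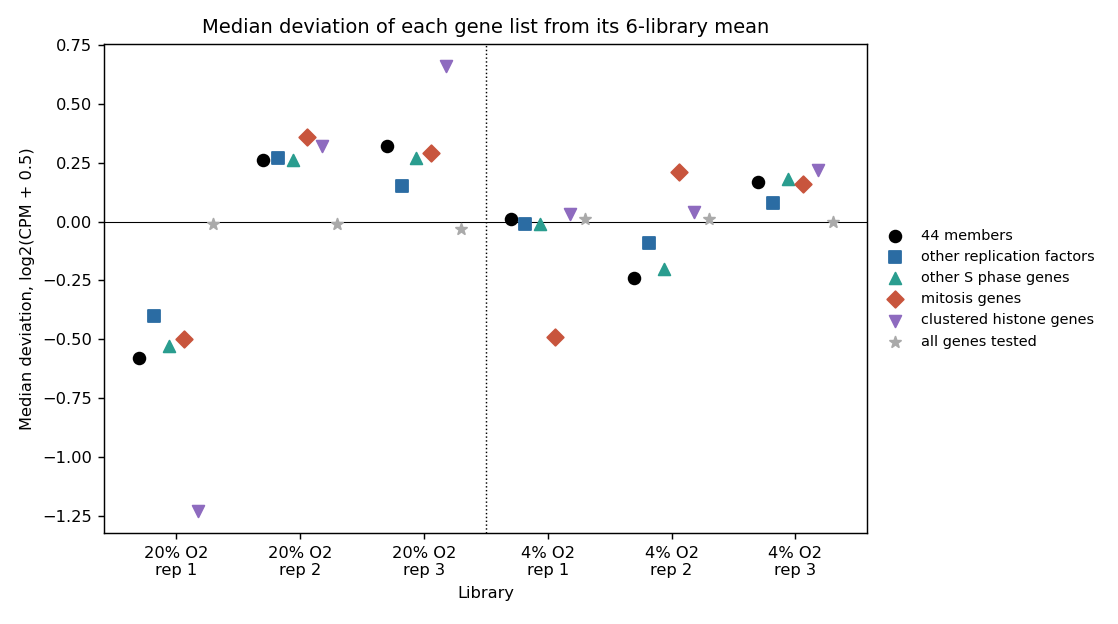
Median deviation of each gene list from its own 6-library mean, in log2(CPM + 0.5), for each library. In 20% O2 replicate 1 the members lie at -0.58, mitosis genes at -0.50 and clustered histone genes at -1.23, and in 4% O2 replicate 1 the members lie at 0.01 and mitosis genes at -0.49.

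The genes that govern entry into S phase were mixed. Of 25 tested E2F, pocket protein and G1 regulators, 12 estimates were above 0, and edgeR called 0, with 1 higher and 0 lower at an unadjusted p under 0.05. Ccnd3, a D-type cyclin, had 40.8, 33.0 and 33.4 CPM at 20% O2 and 48.2, 62.1 and 64.8 CPM at 4% O2, with no overlap (log2 fold change 0.71, SE 0.24; edgeR adjusted p = 0.963). E2f7, an E2F family repressor, had 32.1, 43.9 and 31.7 CPM at 20% O2 and 21.8, 26.5 and 30.7 CPM at 4% O2, also without overlap in the other direction (log2 fold change -0.45, SE 0.26; edgeR adjusted p = 0.996). Cdkn1a, which encodes the cyclin kinase inhibitor p21, was highest in 20% O2 replicate 1, at 86.4 CPM against 21.4 and 31.2 CPM in the others of that level and 31.3 to 48.2 CPM at 4% O2. Cdkn1b, which encodes another cyclin kinase inhibitor, was instead lowest in 20% O2 replicate 1, at 95.2 CPM. It had 104 and 143 CPM in the others of that level and 138, 100 and 108 CPM at 4% O2. Ccnd1, the cyclin induced by growth signals, was also lowest in 20% O2 replicate 1, at 170 CPM against 473 and 396 CPM, and was 253, 557 and 476 CPM at 4% O2.

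Mesenchymal markers and immune and endothelial markers had their highest sums in 20% O2 replicate 1, at low levels. The sum of Schwann and glial markers did not peak there. The summed level of 10 mesenchymal markers was 36.7 CPM in that library, 5.29 and 6.92 CPM in the other 20% O2 libraries and 8.29 to 17.9 CPM at 4% O2, with Lum at 0 in all 6. Of those 10 markers 7 stayed under 1 CPM in every library, and Pdgfrb, Col1a1 and Pdgfra did not. The 9 immune and endothelial markers summed to 12.3 CPM in that library and 2.56 and 4.22 CPM in the other 20% O2 libraries. At 4% O2 they summed to 5.26 to 7.69 CPM. Cd3e was at 0 in all 6, and 7 of the 9 were under 1 CPM in every library. The exceptions were Pecam1, at 1.7 to 9.66 CPM, and Cd68, at 0.314 to 1.74 CPM, so these sums rest mainly on Pecam1. The 8 Schwann and glial markers summed to 18.3, 8.21 and 14.9 CPM in 20% O2 replicates 1 to 3. At 4% O2 they summed to 19.9, 11.6 and 21.3 CPM. Gene by gene, however, 4 of the 6 tested were highest in 20% O2 replicate 1, beside 24.8% of all tested genes. The same held for 3 of 5 tested mesenchymal markers and 4 of 4 tested immune and endothelial markers. The 18 neuroblast identity genes summed to 3775 to 4060 CPM at 20% O2 and 5589 to 6929 CPM at 4% O2. Chgb alone had 1979 to 3957 CPM. Of the 17 tested, 7 had each low-oxygen library above each ambient one, beside 6.33% of all tested genes. In 20% O2 replicate 1, 8 of the 17 were at their lowest, beside 25.8% of all tested genes. Their median deviation from the 6-library mean, in log2(CPM + 0.5), was -0.54 there and -0.11 and -0.27 in 20% O2 replicates 2 and 3. At 4% O2 it was 0.15, 0.44 and 0.31. The part of these markers in the levels of the replication genes was not tested.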

How the data were processed

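For each gene the deposited table gives, per the file headers, a read count and an RPKM in 6 libraries. TopHat2 2.0.6, Bowtie, HTSeq and the build mm10 appear in the submitters' processing notes without a role. The series text names a stranded total RNA kit and the extraction protocol an mRNA kit. Sources used here give no counting mode, strand use or annotation. The authors' RPKM is per kilobase of the deposited gene length and served to compare levels between genes. All counts (100%) were even numbers, a pattern that counting each mate separately would give, and 0 columns of sample values were unmatched.

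Counts were analysed with edgeR 4.0.16 in R 4.3.3: filterByExpr (minimum count 10, minimum total 15), TMM scaling and a two-sided quasi-likelihood test on all 6 libraries without a covariate. Standard errors are the log2 fold change over the square root of F. DESeq2 1.42.0, limma 3.58.1 (voom), other scalings, no filter, the replicate block and leaving out each library were alternatives. Leaving out both libraries numbered 1 was added after the results were seen. The fit was tested on simulated counts with known changes.

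Deviations from the group means correlated at 0.285, 0.465 and 0.233 across genes between the libraries numbered 1, 2 and 3. Between libraries of unlike number the correlations ran from -0.418 to 0.0787. The numbers were used as pairs in the within-number differences and in the replicate block. The main fit left them out, since the labels do not say what a number marks, so its standard errors and p-values ignore any pairing. Exon overlaps came from GENCODE M21. Values in each library are printed for the 2 members with the smallest p in each of 7 role groups and for members whose groups do not overlap, which made 14, and for Mcm6 and Cdt1 as examples chosen after their values were seen. Of each wider list the 2 genes with the smallest p could be named, and other names were chosen after their values were seen. Members and lists were chosen with earlier results of these data known. Of 180 list entries outside the members 179 matched a row.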

Additional observations from a re-analysis of the deposited data

How the results depend on the processing

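Across the 13 alternatives, 0 of the 44 members were called in either direction. The member median of log2 fold change was -0.07 in the fit reported and -0.1 with DESeq2 or with its size factors in edgeR, 0.01 with library totals, -0.01 with limma-voom, and -0.31 without the libraries numbered 1 of both groups. Leaving out single libraries gave -0.31 to 0.08, all within 0.37 log2 units of the fit reported, the mean SD of the member median between libraries. That spread includes the libraries left out, so it cannot show that the median is stable. Estimates below 0 went from 27 of the 44 to 39 without 20% O2 replicate 1. E2f1 kept an estimate above 0 in all 13 (0.48 to 0.85) and Slbp one below 0 in all 13 (-0.43 to -0.26). Among the other 12 members with printed library values, Gmnn, Gins4, Rrm2 and E2f2 changed sign in 1 alternative each. Over all genes, 25 were called higher and 2 lower with no filter on low counts, 55 and 8 with DESeq2, and 0 to 1 when single libraries were left out, with the 1 lower call without 4% O2 replicate 3. With the replicate number as a block edgeR called 11 genes higher and 0 lower, and it changed no call among the members. Members at their lowest in 20% O2 replicate 1 numbered 30 with CPM from library totals and 33 with the authors' RPKM. Members had at least 972 counts in each library, so counting error was small, and with 3 libraries per level the spread between libraries sets the precision.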
